A study of Mus musculus with 15 samples.

Results

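The 6 connexin genes Gja1, Gja4, Gja5, Gjc1, Gjb2 and Gjb6 were read at every probe set annotated to them, 12 of the 45101 probe sets on the array, and they are 6 of 18193 genes named there. Gja1 had 6 probe sets, Gjc1 had 2 and the other 4 genes had 1 each. They were chosen by symbol, with earlier results of these data known, and not by a cutoff on any measured value. The arrays came from male C57BL6J mice aged 10 to 12 weeks that were either NOTCH3 +/- or NOTCH3 -/-. No wild-type array was analysed here, so the controls also lack 1 intact copy of Notch3. FACS-sorted brain cells labelled SMC/pericyte gave 4 arrays of Notch3 +/- mice (E, G, I and H) and 5 of Notch3 -/- mice (A, B, C, D and F). Aorta explants gave 3 arrays of Notch3 +/- (5556, 5561 and 6166) and 3 of Notch3 -/- (5558, 5559 and 6167). The titles do not say what the brain letters or the aorta numbers stand for. Whether each array is a mouse of its own is not known from them. P-values from either tissue then speak for these samples' spread alone, which may be technical. The explant is a piece of vessel and not a sorted cell type, and the titles do not say which layers of its wall were kept. The sorted cells stand for the smooth muscle cells and pericytes of brain only as far as the sort was pure.

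Connexins are membrane proteins that assemble into a hemichannel, and hemichannels of neighbouring cells dock into a gap junction through which ions and small molecules pass. In the vessel wall these channels couple endothelial cells and smooth muscle cells to each other, which lets a change of membrane potential travel along an arteriole. Gja1, Gja4 and Gja5 are the connexins usually named for endothelium, and Gja1, Gja4 and Gjc1 those for smooth muscle and pericytes. Astrocytes are coupled mainly through Gja1 and Gjb6, and Gjb2 is found mainly in the meninges and in some astrocytes.

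Promoter sequences are shown for Gjb2 and Gjb6, which lie next to each other among protein-coding genes on mouse chromosome 14 (1 long non-coding RNA gene, Gm32912, is annotated between them) and were both far brighter in brain than in aorta, for Gja1, whose own probe sets disagreed between the tissues, and for Gja4, the member with the largest fall in the brain estimate. Each is the 250 bases before the annotated gene start, 5′ to 3′ on the gene's strand, from RefSeq on build GRCm38.p6, and capitals mark a GC box.
Gja1, chr10:56377050-56377299, plus strand: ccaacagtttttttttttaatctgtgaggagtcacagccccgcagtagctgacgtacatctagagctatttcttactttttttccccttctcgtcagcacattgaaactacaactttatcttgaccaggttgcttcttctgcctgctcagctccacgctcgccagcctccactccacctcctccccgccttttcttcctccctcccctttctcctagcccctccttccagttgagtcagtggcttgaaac
Gja4, chr4:127314040-127314289, minus strand: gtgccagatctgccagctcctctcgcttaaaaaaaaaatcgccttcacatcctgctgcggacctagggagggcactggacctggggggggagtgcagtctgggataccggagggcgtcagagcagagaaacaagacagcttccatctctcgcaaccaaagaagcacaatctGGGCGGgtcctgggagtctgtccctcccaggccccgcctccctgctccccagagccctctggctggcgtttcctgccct
Gjb2, chr14:57104703-57104952, minus strand: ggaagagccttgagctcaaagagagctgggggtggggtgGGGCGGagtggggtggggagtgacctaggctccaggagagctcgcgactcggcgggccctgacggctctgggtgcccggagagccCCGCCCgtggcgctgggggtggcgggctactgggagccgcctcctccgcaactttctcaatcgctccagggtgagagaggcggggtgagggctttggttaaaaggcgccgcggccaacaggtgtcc
Gjb6, chr14:57133612-57133861, minus strand: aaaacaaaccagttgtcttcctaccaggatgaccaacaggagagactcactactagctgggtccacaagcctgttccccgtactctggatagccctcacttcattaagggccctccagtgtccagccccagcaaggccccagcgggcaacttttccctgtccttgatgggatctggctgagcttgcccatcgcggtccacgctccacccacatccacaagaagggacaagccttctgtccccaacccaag
The letters GGGCGG (the GC box) on either strand occurred in the windows of Gjb2, Gja4 and Gja5, and in 32.7% of all 32851 promoter windows of that length. Gjb2 held 2 of them, and its window had 69.2% G and C against 56.8% for its neighbour Gjb6. TGGGAA, the core of the site bound by RBPJ, the DNA-binding partner of Notch, was in none of the 5 connexin windows found (21.6% of all windows held it), and neither was TATAAA (12.4%). A match or its lack in this window says nothing on whether a factor binds there. RefSeq windows were found for 5 of the 6 genes, Gjc1 being the other.

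Values are linear intensities that the authors scaled to a target of 150 on each array. The median probe set read between 35.9 and 51.8. Notch3, at the brighter of its 2 probe sets, read 2326 to 2805 in Notch3 +/- brain and 150 to 249 in Notch3 -/- brain, and 362 to 453 against 80.1 to 146 in aorta, so the arrays went with their labels. The sort label was checked against marker lists. All 18 smooth muscle and mural markers were on the array, and 17 of them passed a filter that kept the probe sets at or above the median brightness in brain, with Acta2 at 20581 ± 6852 (SD, n = 4) in Notch3 +/-. Markers of other cells were bright in the same preparation: the myelin gene Mbp read 22389 ± 4926, the endothelial Cldn5 15991 ± 4629, the choroid plexus gene Ttr 28772 ± 11075 and the astrocyte water channel Aqp4 959 ± 461 in Notch3 +/- brain. In Notch3 +/- aorta Aqp4 read 5.19 ± 4.72 and Ttr 8.61 ± 1.82 (n = 3). Levels in the brain arrays are therefore those of a mixed preparation, and in such bulk samples fewer cells of a type and less RNA per cell cannot be told apart.

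**Figure D1:**
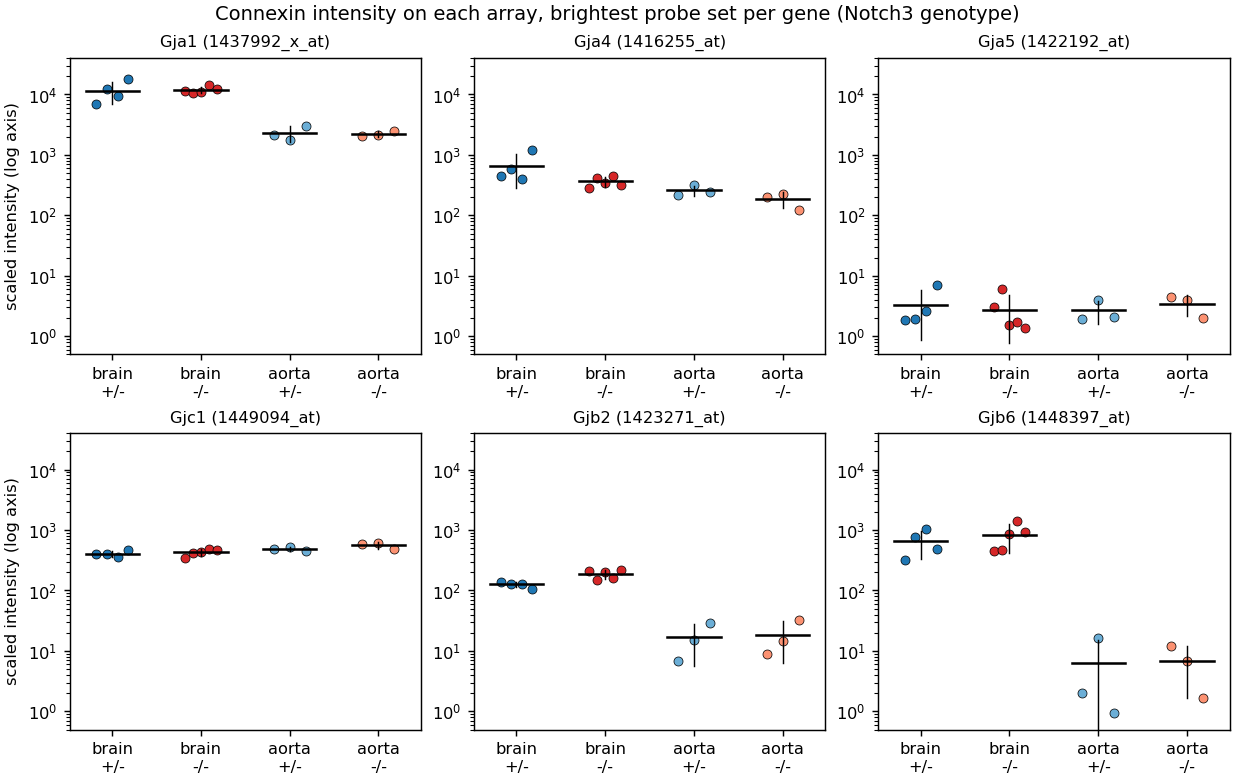
Scaled intensity (log axis) of the brightest probe set of each connexin gene in the 4 groups. Points are arrays, horizontal bars are means and vertical bars are 1 SD, drawn down to the axis where mean minus SD falls below it. Gjb6 and Gjb2 lie far lower in aorta than in brain, Gjc1 lies at a like level in all groups, and Gja5 reads at most 7.01 on any array.

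No connexin probe set passed 5%, the false discovery rate at which a difference was called, between genotypes in brain or in aorta. In brain 10 of the 12 probe sets were bright enough to be tested, and limma with Benjamini-Hochberg adjustment over 22519 probe sets called 0 of them, where 0.142% of all probe sets were called. At an unadjusted p under 0.05 there were 4 of 10 (9.39% of all probe sets): Gja4, which was lower in Notch3 -/-, and Gjb2, 1 probe set of Gja1 and 1 of Gjc1, which were higher. The median difference of the 10 was 0.29 on the log2 scale, against 0.01 over all probe sets tested. In aorta 8 were tested and 0 were called, as were 0% of all probe sets. None of the 8 had an unadjusted p under 0.05, where 4.35% of all probe sets did, and their median difference was -0.04. Notch3 itself, at its brighter probe set, differed by -1.78 in aorta and was not called either (limma adjusted p = 0.135). The lack of calls in aorta therefore does not show that the connexins were unchanged there. The difference between the genotype differences in brain and aorta was also called at 0 of 10 (0.0178% of all probe sets), with none at an unadjusted p under 0.05 (4.76% of all).

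**Figure D2:**
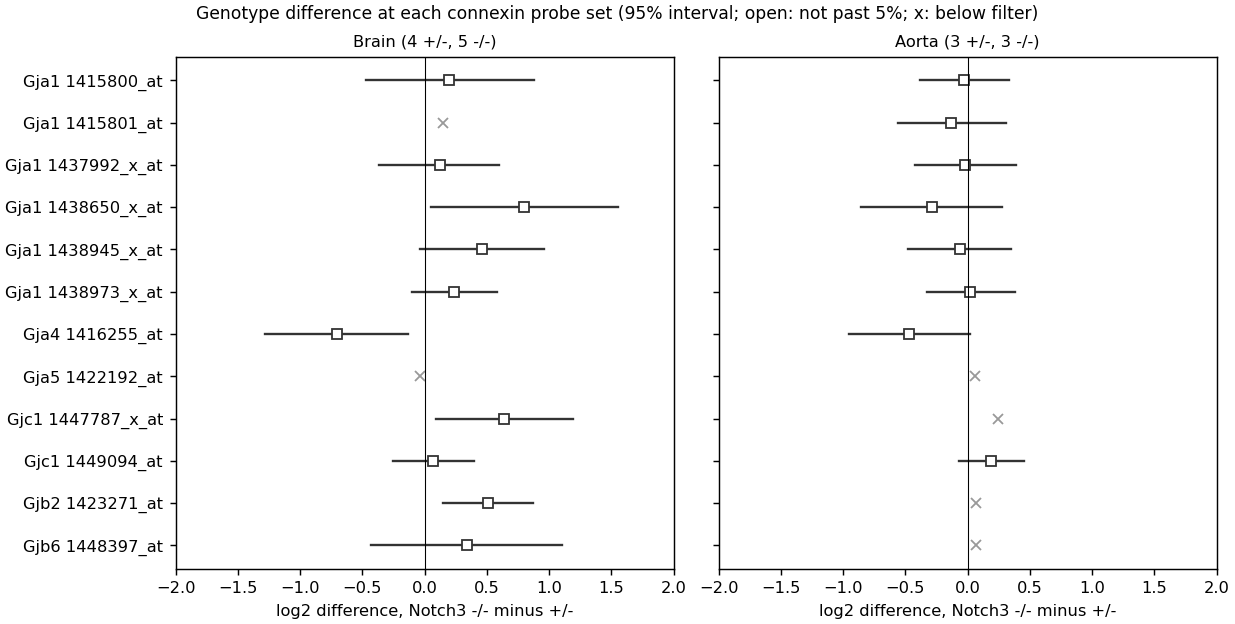
Log2 difference, Notch3 -/- minus +/-, at each of the 12 connexin probe sets in brain (left) and aorta (right). Squares are limma estimates with 95% intervals, all open because none passed 5%, and crosses are probe sets below the filter, with no test. The Gja4 interval in brain runs from -1.28 to -0.13 and the Gjb2 interval from 0.15 to 0.87, before adjustment over all probe sets.

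Gja4, a connexin of endothelium and arteriolar smooth muscle, had the largest fall of the 6 genes' brightest probe sets in the brain estimate. It read 440 (E), 585 (G), 400 (I) and 1201 (H) in Notch3 +/- brain, and 289 (A), 416 (B), 340 (C), 453 (D) and 322 (F) in Notch3 -/- brain. Array H stood far above the others, and the Notch3 -/- arrays B and D read higher than the Notch3 +/- array I, so the genotypes overlapped. The difference was -0.70 (SE 0.27, 1.63-fold lower on the log2(value + 16) scale; limma adjusted p = 0.428), and without H it was -0.37. In aorta Gja4 read 220, 314 and 240 in Notch3 +/- and 203, 228 and 125 in Notch3 -/-, where array 6167 was the low one and 5559 lay above 5556. That difference was -0.47 (SE 0.21, adjusted p = 0.999), and brain minus aorta of these genotype differences was -0.24 (95% interval -1.08 to 0.61, adjusted p = 0.997), which was not called.

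Mural markers, like Gja4, mostly had lower estimates in Notch3 -/- brain. Of 17 tested markers 15 were lower in Notch3 -/- brain, with a median of -0.58 against 0.01 over all probe sets tested. Past 5% were 4 of them (Tagln, Myh11, Myl9 and Smtn), where 0.142% of all probe sets were called in either direction. Their summed intensity ran from 60280 to 103107 in Notch3 +/- and from 43941 to 53459 in Notch3 -/-, with 1 of 18 markers at a mean under 50 in each group and no value at 0. Array H was the highest for the sum and for Gja4, and array A the lowest for each. The sum separates the genotypes and neither genotype has 6 arrays, so no correlation over all arrays or within 1 genotype is read. Pearson r of Gja4 with the list's mean log2 level, on deviations from the genotype means, was 0.97 with array H included. The same value without H was not computed. It is given as a description, and the mural markers' part in the Gja4 reading was not tested.

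**Figure D3:**
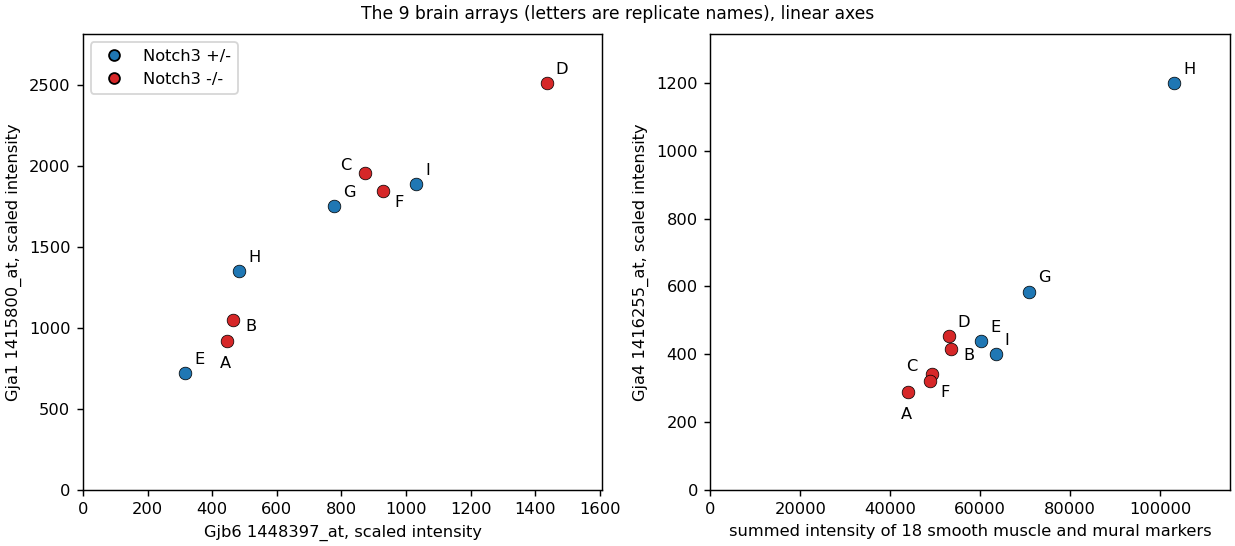
The 9 brain arrays on linear axes, lettered by replicate, blue for Notch3 +/- and red for Notch3 -/-. Left, Gja1 against Gjb6, at 1415800_at, the tested Gja1 probe set with the highest r with Gjb6. Arrays E and D are the lowest and highest for both, and the genotypes are mixed along the line. Right, Gja4 against the summed intensity of 18 smooth muscle and mural markers: array H stands apart at 1201 and 103107.

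Gja4 was brighter in brain than in aorta in each genotype. The log2 difference was 1.17 (SE 0.32, 2.25-fold, limma adjusted p = 0.011) in Notch3 +/- and 0.93 (SE 0.20, 1.91-fold, adjusted p = 0.00103) in Notch3 -/-, and in each case no brain array overlapped an aorta array. Without H the Notch3 +/- difference was 0.84. From the highest mean to the lowest the groups ran Notch3 +/- brain (657 ± 372), Notch3 -/- brain (364 ± 68.1), Notch3 +/- aorta (258 ± 49.4) and Notch3 -/- aorta (186 ± 53.9), and each neighbouring pair in that order overlapped. RNA was extracted differently from the sorted cells and from aorta, so tissue and extraction cannot be told apart in this or any other tissue comparison.

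Gja5, the connexin of arterial endothelium and cardiac conduction tissue, was dim everywhere. Its single probe set read 1.35 to 7.01 over the 9 brain arrays and 1.96 to 4.42 over the 6 aorta arrays, and lay between the 2.7th and the 16.8th percentile of its array. It was below the filter in every comparison, so no test was made, and the 4 groups overlapped. Gjc1, which couples smooth muscle cells and pericytes, was steady at its brighter probe set, 1449094_at. That probe set read 402, 407, 356 and 467 in Notch3 +/- brain and 349, 416, 439, 487 and 465 in Notch3 -/- brain; in aorta it read 492, 521 and 445 in Notch3 +/- and 580, 608 and 483 in Notch3 -/-. The highest array was less than 2 times the lowest over all 15. In brain the genotype difference was 0.07 (95% interval -0.25 to 0.40, limma adjusted p = 0.916). The aorta arrays gave 0.19 (-0.07 to 0.45, adjusted p = 0.999). Brain was lower than aorta by -0.36 in Notch3 -/- (adjusted p = 0.042), with array A of brain the low one; the call was lost without brain array A, B or C or aorta array 5558 or 5559 (adjusted p up to 0.166), under quantile normalization (0.106), with no filter (0.052) and with no intensity trend (0.0612). In Notch3 +/- the difference was -0.25 (adjusted p = 0.209).

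The dimmer Gjc1 probe set, 1447787_x_at, gave another picture. It read 241, 388, 151 and 168 in Notch3 +/- brain and 301, 278, 395, 531 and 320 in Notch3 -/- brain, but 3.70, 21.2 and 34.7 in Notch3 +/- aorta and 31.9, 27.6 and 13.6 in Notch3 -/- aorta. Every brain array was above every aorta array, by 2.83 in Notch3 +/- and 3.23 in Notch3 -/- on the log2(value + 16) scale. This is a description with no test: the probe set passed the filter through its brain arrays alone, and the added 16 sets the size against aorta readings this dim. Its suffix marks, in Affymetrix naming, a probe set whose probes may also bind other transcripts. The log2 ratio of the dimmer to the brighter probe set within an array was -0.83 ± 0.58 (n = 4) in Notch3 +/- brain and -3.91 ± 0.75 (n = 3) in Notch3 +/- aorta, and -0.26 ± 0.28 (n = 5) and -3.85 ± 0.22 (n = 3) in Notch3 -/-. The ratio was taken on log2(value + 16), so its aorta level also depends on the added 16. It restates the difference between the probe sets, so no test of it is read. The sources used here do not say which probe set reads Gjc1 alone. In brain the dimmer one was 0.64 higher in Notch3 -/- (SE 0.26, adjusted p = 0.447), with overlap at G.

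**Figure D4:**
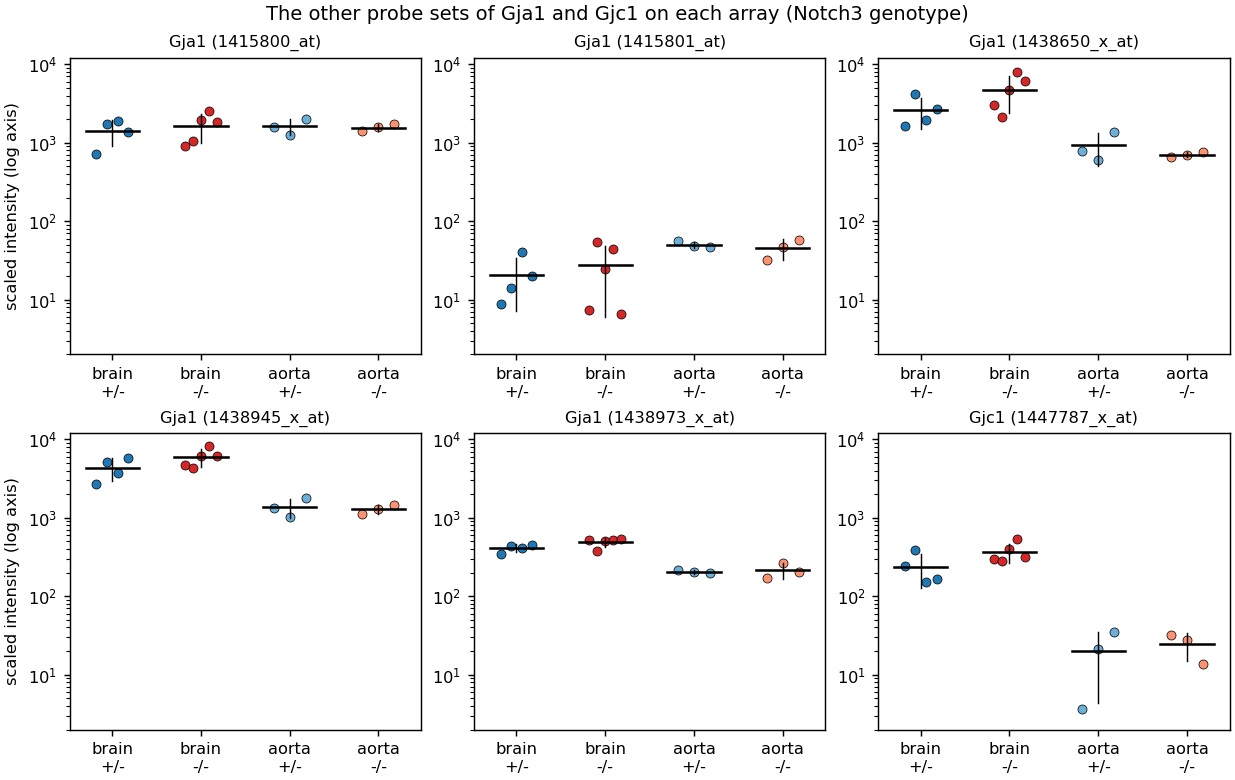
Scaled intensity (log axis) of the 5 other probe sets of Gja1 and the dimmer one of Gjc1, drawn as in the plot of the brightest probe sets. Gja1 1415800_at lies at a like level in brain and aorta, while 1438650_x_at, 1438945_x_at and 1438973_x_at are higher in brain and 1415801_at is at most 58.2.

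Gja1, the most widely expressed connexin of vessels and astrocytes, read brightest at 1437992_x_at. The Notch3 +/- brain arrays gave 7067 (E), 12200 (G), 9323 (I) and 17742 (H), and the Notch3 -/- ones 11325 (A), 10682 (B), 10899 (C), 14350 (D) and 12356 (F). E was the lowest and H the highest, both of the same genotype, so the Notch3 -/- range lay inside the Notch3 +/- range. In aorta the arrays read 2098, 1759 and 3060 in Notch3 +/- and 2052, 2130 and 2502 in Notch3 -/-. In brain the genotype difference was 0.12 (95% interval -0.37 to 0.60, limma adjusted p = 0.91), and without E it was -0.09. The aorta arrays gave -0.02 (-0.42 to 0.39, adjusted p = 0.999). The other tested Gja1 probe sets gave 0.20 to 0.80 in brain, all higher in Notch3 -/- and all with overlap. The largest, at 1438650_x_at, came from 1658, 4188, 1926 and 2724 in Notch3 +/- against 2992, 2113, 4675, 7896 and 6136 in Notch3 -/- (SE 0.35, adjusted p = 0.506). In aorta the same probe set gave -0.29 (adjusted p = 0.999), and its difference between tissues, 1.09 with a 95% interval of -0.02 to 2.20, was not called (adjusted p = 0.997). The dimmest, 1415801_at, read 6.61 to 53.6 in brain and 31.6 to 58.2 in aorta and was tested in aorta alone (-0.13, adjusted p = 0.999).

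Whether Gja1 was higher in brain than in aorta depended on the probe set. At 1437992_x_at brain was 4.84-fold higher in Notch3 +/- (log2 2.28, SE 0.30, limma adjusted p = 9.17e-05) and 5.31-fold higher in Notch3 -/- (2.41, SE 0.13, adjusted p = 3.78e-09). The probe sets 1438650_x_at, 1438945_x_at and 1438973_x_at were also higher in brain, by 0.95 to 1.63 in Notch3 +/- and by 1.16 to 2.58 in Notch3 -/-. At 1415800_at the levels overlapped: 719, 1752, 1887 and 1353 in Notch3 +/- brain and 921, 1048, 1956, 2513 and 1846 in Notch3 -/- brain, against 1592, 1250 and 2000 in Notch3 +/- aorta and 1393, 1568 and 1720 in Notch3 -/- aorta. Its tissue difference was -0.24 (95% interval -0.91 to 0.43, adjusted p = 0.535) in Notch3 +/- and -0.01 (-0.59 to 0.57, adjusted p = 0.978) in Notch3 -/-. The log2 ratio of 1437992_x_at to 1415800_at within an array was 3.01 ± 0.61 in Notch3 +/- brain and 0.50 ± 0.11 in Notch3 +/- aorta, and 2.93 ± 0.51 and 0.51 ± 0.06 in Notch3 -/-. The tissues did not overlap in this ratio, which restates the difference between the probe sets, so no test of it is read. All 4 probe sets that were higher in brain carry the suffix for probes that may bind other transcripts, and 1415800_at does not.

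Gjb6, the second main connexin of astrocytes, read 316 (E), 778 (G), 1031 (I) and 484 (H) in Notch3 +/- brain and 447 (A), 463 (B), 873 (C), 1435 (D) and 929 (F) in Notch3 -/- brain. In aorta it read 1.99, 16.2 and 0.95 in Notch3 +/- and 12.0, 6.78 and 1.68 in Notch3 -/-, so every brain array was above every aorta array and the genotypes overlapped in each tissue. The genotype difference in brain was 0.34 (SE 0.36, 95% interval -0.43 to 1.10, limma adjusted p = 0.809). Brain minus aorta was 4.83 in Notch3 +/- and 5.10 in Notch3 -/- on the log2(value + 16) scale. These are given as a description with no test, because Gjb6 passed the filter through its brain arrays alone and, against aorta readings this dim, the added 16 sets the size of the difference. Astrocyte markers differed between the tissues as well, with a summed intensity of 8724 to 25732 on the brain arrays and 744 to 900 on the aorta arrays.

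Gjb2, a connexin of the meninges, was the 1 member whose genotypes did not overlap in brain. It read 138, 130, 129 and 106 in Notch3 +/- and 207, 149, 204, 161 and 218 in Notch3 -/- (126 ± 13.6 and 188 ± 30.7). Of all probe sets tested in brain 1.46% were likewise higher in every Notch3 -/- array. The difference was 0.51 (SE 0.17, 1.43-fold, limma adjusted p = 0.352), and 0.44 to 0.59 with any 1 array left out. In aorta it read 6.73 to 29.2 in Notch3 +/- and 9.01 to 32.2 in Notch3 -/-, below the filter. Brain minus aorta was 2.16 in Notch3 +/- and 2.60 in Notch3 -/-, again with no test and with a size that depends on the added 16, since Gjb2 also passed the filter through brain alone. The groups ran, without overlap, from Notch3 -/- brain over Notch3 +/- brain to aorta, where the genotypes overlapped. Markers of meningeal and perivascular fibroblasts had higher estimates on the same Notch3 -/- brain arrays: of 16 tested, 12 were above 0, with a median of 0.59 against 0.01 over all probe sets. Of the 16 markers 1, Aldh1a2, rose past 5%, where 0.142% of all probe sets were called in either direction. Their summed intensity ran from 14417 to 25141 in Notch3 +/- and from 21118 to 27466 in Notch3 -/-, with overlap, and no value was 0. In Notch3 +/- brain 2 of 16 had a mean under 50. In aorta, where Gjb2 was dim, the same markers summed to between 42678 and 46648, but they went both ways between tissues. In Notch3 +/- 9 of 14 tested were lower in brain past 5% and 5 higher (25.2% and 26.5% of all probe sets). Dcn, for instance, differed by -4.74 and Ptgds by 6.94. In Notch3 -/- 9 of 16 were lower and 7 higher (28.9% and 33.6% of all). The mural markers, lower in Notch3 -/- brain as described for Gja4, ran opposite to Gjb2: array H had the highest mural sum and the lowest Gjb2 reading. On deviations from the genotype means over the 9 arrays, Pearson r with Gjb2 was -0.67 for the mural list and -0.14 for the fibroblast list, given as a description. The part of either list in the Gjb2 reading was not tested.

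**Figure D5:**
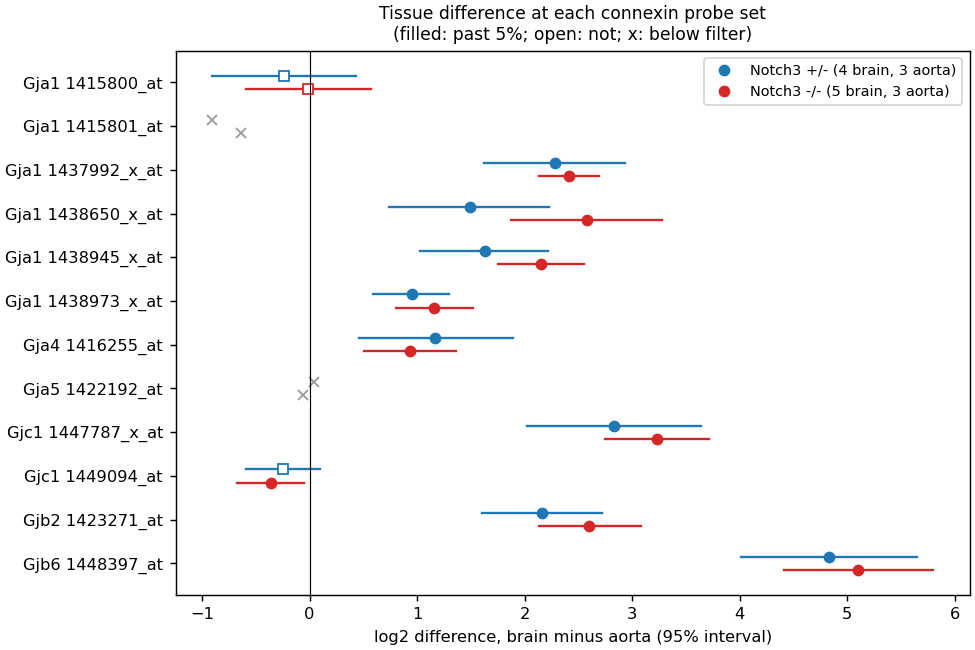
Log2 difference, brain minus aorta, at each connexin probe set, in Notch3 +/- (blue, 4 against 3 arrays) and Notch3 -/- (red, 5 against 3). Points are limma estimates with 95% intervals, filled where past 5%, and crosses are below the filter. Gjb2, Gjb6 and Gjc1 1447787_x_at are filled but passed the filter through brain alone, so their fill is no test. Gjb6 stands farthest to the right at 4.83 and 5.10, and the 2 Gjc1 probe sets lie on opposite sides of 0.

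Over all tested members, 8 of 10 probe sets were higher in brain in Notch3 +/- and 0 lower (26.5% of all probe sets were higher and 25.2% lower), and 8 of 10 higher and 1 lower in Notch3 -/- (33.6% and 28.9%). In each genotype the 8 higher ones had every brain array above every aorta array, as had 28.6% of all probe sets in Notch3 +/- and 31.7% in Notch3 -/-. The median over all probe sets was itself 0.11 higher in brain in Notch3 -/-, and 0.04 under quantile normalization. Gjb2, Gjb6 and Gjc1 1447787_x_at passed the filter only through their brain arrays and so had to differ, and 4 of the 8 belong to Gja1; the count is given as a description.

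Gjb6 and Gja1 at 1415800_at rose and fell together over the 9 brain arrays. Arrays E, A, B and H were the lowest for each and D the highest. Pearson r was 0.97 and Spearman rho 0.95 (two-sided exact permutation p = 1.93e-05 and 0.000353; 0.000868 and 0.00794 after Benjamini-Hochberg adjustment over the 45 pairs of probe sets computed). Without the 2 arrays farthest from the median of the Gja1 reading r was 0.96, and on deviations from the genotype means it was 0.97; each genotype alone has too few arrays for a value. That probe set was the closest to Gjb6 among the tested ones of Gja1. The brightest Gja1 probe set gave r = 0.35 and rho = 0.37 with Gjb6 (exact permutation p = 0.366 and 0.336, adjusted p = 0.485 and 0.459). With 1438650_x_at, 1438945_x_at and 1438973_x_at r was 0.73, 0.69 and 0.60, which did not pass (exact permutation adjusted p = 0.136, 0.155 and 0.23). Without the 2 arrays farthest from the median of each Gja1 reading, r was 0.48, 0.07 and 0.10. Of the 45 pairs 5 passed by Pearson, 3 of which joined probe sets of Gja1 to each other. The fifth, Gja4 with Gjb2, is not read, since Gjb2 separates the genotypes. By Spearman 5 passed as well, but Gja4 with Gjb2 did not (exact permutation adjusted p = 0.12). In its place Gja1 1438650_x_at passed with Gjc1 1447787_x_at (rho = 0.87, exact permutation adjusted p = 0.0406). Both carry the suffix for probes that may bind other transcripts. Astrocyte markers varied over the same arrays: their summed intensity was 8724 in E, 12639 in A, 12864 in B, 17586 in G, 18855 in F, 19215 in C, 21815 in I, 24394 in H and 25732 in D. All 14 were tested in brain, 6 were higher in Notch3 -/- and 0 passed 5%, with a median of -0.09; 1 of 14 had a mean under 50 in Notch3 -/- brain and none did in Notch3 +/-. The mean log2 level of that list gave r = 0.80 with Gjb6 and 0.88 with Gja1 1415800_at (exact permutation p = 0.0124 and 0.00268), which did not pass over the 90 relations to marker lists (adjusted p = 0.186 and 0.0804). Oligodendrocyte markers did as much: r was 0.86 with Gjb6 and 0.82 with Gja1 1415800_at (exact permutation p = 0.00448 and 0.00756, adjusted p = 0.101 and 0.136). With choroid plexus markers r was -0.71 and -0.75 (exact permutation adjusted p = 0.312 and 0.203), so the relation was not particular to the astrocyte list. The summed oligodendrocyte intensity ran from 31750 to 44486 in Notch3 +/- and from 35744 to 49741 in Notch3 -/- brain, with 10 of 12 markers tested, 8 higher in Notch3 -/- and 0 past 5%. Endothelial markers had all 18 tested in brain, 7 higher in Notch3 -/- and 0 past 5%, with a summed intensity of 34358 to 55565 in Notch3 +/- and 40700 to 52340 in Notch3 -/-. Of the 90 relations 2 passed by Pearson, Gja4 and Gjb2 with the mural list, and 0 passed by Spearman. Those 2 are not read, since the mural list separates the genotypes. The part of the marker lists in the connexin readings was not tested.

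The genes whose profile over the 15 arrays lay nearest to a member were found by the root-mean-square difference of centred log2(value + 16) profiles, over 11980 other named genes (11981 for Gja5). For Gjb6 they were Ttyh1 (0.32), Atp13a4 (0.35) and Acsl6 (0.41), where the median gene lay 2.47 away. Ttyh1 averaged 846 and 942 in the brain groups and 10.6 and 7.31 in the aorta groups (Notch3 +/- first). For Gjb2 they were Ankrd33b (0.29), Ifih1 (0.30) and Tec (0.31), with a median of 1.23, and Ankrd33b averaged 264 in Notch3 +/- brain and 417 in Notch3 -/- brain. For Gja4 they were Col4a2, Mfge8 and Rbm42 (0.29 each, median 0.78), and Col4a2 averaged 3449 and 2583 in the brain groups, then 1686 and 1426 in the aorta groups. For Gja1 at its brightest probe set they were Ifi35 (0.23), Eif2b2 (0.25) and Aph1a (0.25), with a median of 1.19. Gjc1 (Hexa, Mtfr1l and Supt7l, 0.13 each) and Gja5 (Zfp687 and Ccdc181 at 0.11, Pabpc1 at 0.12) were nearly flat, so their neighbours are merely flat as well.

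Of 17 other connexins and pannexins listed, 11 had a probe set with 1 symbol, and none of the 11 was bright enough to be tested in any comparison. The highest reading of any was 54.2, for the pannexin Panx1 in Notch3 -/- aorta array 6167. Among genes known to bind or regulate connexins, 19 of 22 listed were on the array, and 0 of 19 passed 5% between genotypes in brain (median -0.08) and 0 of 17 in aorta (0.01), by limma. The smallest p in brain belonged to Nedd4, a ubiquitin ligase that targets the Gja1 protein (log2 -0.51, adjusted p = 0.426), and Tjp1, the scaffold that anchors gap junctions (0.36, adjusted p = 0.508). In aorta it belonged to Akap12 (-0.25) and Trim21 (0.18). Between tissues 8 of 18 were higher in brain and 4 lower in Notch3 +/-, beside 26.5% and 25.2% of all probe sets. Tjp1 was higher in brain by 1.29 and Cdh2, a cadherin of cell contacts, by 2.04, while Nedd4 was lower by -2.32 and Ccn3, a matrix protein that binds Gja1, by -3.15 (adjusted p = 0.000116, 9.56e-05, 2.02e-06 and 2.26e-05). The kinases Csnk1d (1.55) and Prkcd (-1.45) passed as well. In Notch3 -/- 8 of 18 were higher and 5 lower, beside 33.6% and 28.9% of all probe sets, with Tjp1 at 1.66, Cdh2 at 1.94, Nedd4 at -2.87 and Ccn3 at -3.14.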

How the data were processed

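Affymetrix mouse 430 2.0 arrays were hybridised with 15 µg of cRNA each. Each deposited value is a linear intensity per probe set, which the authors scaled to a target of 150 according to the design text. The sources used here do not state the probe summary, background correction, detection calls or genome build. Arrays were grouped by their titles. Symbols came from the platform annotation, of which 34754 of 34958 probe sets with 1 symbol were brought up to date through RefSeq.

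Values were taken as log2(value + 16). For each fit, 64 control probe sets and all whose mean log2 value fell under the 0.5 quantile were left out. The remaining 22519 went into limma (version 3.58.1, R 4.3.3): lmFit, then eBayes with trend, two-sided p-values, Benjamini-Hochberg over all of them and calls at 5%. Genotypes were compared within each tissue, tissues within each genotype, and the difference of differences over 15 arrays. The 95% intervals of log2 differences use limma's moderated spread and are not adjusted. Comparisons share arrays and are not independent. Exact permutation tests of correlations took all orders of the arrays and were two-sided. Pearson r between replicates was 0.932 to 0.981, no pair shared over 0.00665% of its values, and each array counted as 1 sample. Their number limits the precision. The fits were tested on simulated data. Every connexin probe set is reported; partner genes, named by smallest p, and nearest profiles followed a written rule. The connexins, lists and rules were chosen with earlier results of these data known. Alternatives were another scaling, other pseudocounts and filters, other model settings and leaving out each array. Protein sequences were not used here.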

Additional observations from a re-analysis of the deposited data

Results flagged for a closer look

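The readings of 2 arrays stood apart within their group of 4 or 5 brain arrays, by a gap to the next array that made up most of the range. Gja1 probe set 1438973_x_at read 378 in Notch3 -/- array B, where the other 4 Notch3 -/- arrays read 508 to 534 (gap 0.853 of the range on the log2 scale). Gja5 read 7.01 in Notch3 +/- array H against 1.86 to 2.62 in the other 3 (0.837 of the range), all of it among the dimmest readings of the array. Chance flags about 1 in 20 groups, and 24 groups were looked at.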

How the results depend on the processing

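The number of connexin probe sets past 5% was 0 for each genotype comparison and for their difference between tissues under each alternative run (quantile normalization, pseudocounts of 1 and 64, no filter or a filter that kept 75%, no intensity trend, array weights, all 15 arrays in 1 fit, the 55xx or 61xx series of aorta names as a block, and each array left out). The smallest adjusted p of any connexin probe set was 0.221 in brain, 0.863 in aorta and 0.559 for the difference. Between tissues the count was 8 or 9 under each alternative. Of 844 values under an alternative, 804 kept their direction and side of 5%, 8 lost a call (all for Gjc1 1449094_at between tissues in Notch3 -/-) and 32 turned sign. Values that turned sign when 1 array was left out ranged, for Gja1 1415800_at, from -0.09 to 0.39 in brain, -0.20 to 0.14 in aorta, -0.06 to 0.41 for the difference, and -0.41 to 0.06 and -0.18 to 0.17 between tissues in Notch3 +/- and -/-. For 1437992_x_at they ranged from -0.09 to 0.35 in brain, -0.19 to 0.21 in aorta and -0.09 to 0.37 for the difference. In aorta they ranged from -0.27 to 0.05 at 1415801_at, -0.56 to 0.04 at 1438650_x_at, -0.26 to 0.13 at 1438945_x_at and -0.14 to 0.16 at 1438973_x_at. For the difference they ranged from -0.47 to 0.10 for Gja4 (positive without brain array H) and -0.02 to 0.53 for Gjb6. The array left out was E in brain, 6166, 5558 or 5559 in aorta, E, H, 5561 or 6166 for the difference, E between tissues in Notch3 +/- and A, B or 6167 in Notch3 -/-. With array weights Gja1 1438973_x_at went to 0.00 in aorta and 1415800_at to 0.14 between tissues in Notch3 -/-, and with a pseudocount of 1 the Gjb6 difference went to -0.13; the cause was not tested. With another probe set of the gene, Gja1 turned to 0.02 in aorta (1438973_x_at) and to -0.24 and -0.01 between tissues (1415800_at), and Gjc1 to 0.40 for the difference and to 2.83 and 3.23 between tissues (1447787_x_at). No paired analysis was possible because the groups share no replicate names. Over all probe sets, 32 were called in brain and 18 with no filter, 50 with a pseudocount of 64, 52 with array weights, 137 with 15 arrays in 1 fit and 10 to 38 with an array left out (10 without H); for the difference, 4 and 13 with array weights and 0 to 7 with an array left out; in aorta, 0 and up to 7. Dim readings limit Gja5 everywhere, and Gjb2, Gjb6 and Gjc1 1447787_x_at in aorta.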

Other observations

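The connexins of oligodendrocytes were dim in a preparation rich in myelin transcripts. Gjb1, a connexin of myelinating cells, read 8.51 ± 8.49 (SD, n = 4) in Notch3 +/- brain and 3.89 ± 2.19 (n = 5) in Notch3 -/- brain, and Gjc3, another of that cell type, was at most 22.8 on any array. Mbp read 22389 ± 4926 and 23104 ± 2560 on the same brain arrays and 164 ± 179 and 61.1 ± 5.12 (n = 3 each) in aorta. Levels of different probe sets cannot be set against each other, so these are given side by side only.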
